A study of Mus musculus with 10 samples.

Results

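The muscle miRNAs miR-1a, miR-133a, miR-133b and miR-206 were taken by name from a mouse miRNA microarray, as every probe whose name has one of these stems, from either arm of the hairpin. This gave 9 of the 1892 miRNAs on the array: mmu-miR-1a-3p, mmu-miR-1a-1-5p, mmu-miR-1a-2-5p, mmu-miR-133a-3p, mmu-miR-133a-5p, mmu-miR-133b-3p, mmu-miR-133b-5p, mmu-miR-206-3p and mmu-miR-206-5p, written below without the species prefix. The array compared 5 samples titled T-C cell with 5 titled control cell. The T-C cell samples carry the source label Col -/- and the control cell samples Control Col, all are labelled male and described as sle liver, and a mouse liver cell culture protocol is named for both. The treatment text, the same for every sample, gives a dose of 0.5 mg TN-CF to each dish holding 100000 T-C cells, for 24 hours, together with a control. The labels do not say what Col, sle, T-C or TN-CF stand for, nor give strain, age or other alleles. As the treatment text is the same for all, it does not show whether the control cell samples received TN-CF. Any difference in treatment between the groups cannot be told apart from the source label. The labels leave unsaid whether replicates are different animals or dishes, and a p-value here reflects only sample-to-sample spread, possibly technical.

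miR-1, miR-133 and miR-206 are the classic muscle miRNAs, transcribed in heart and skeletal muscle under myogenic transcription factors. They are made from shared primary transcripts: a miR-1 gene is paired with a miR-133a gene, and miR-206 with miR-133b. In muscle, miR-1 and miR-206 are known to favour differentiation, and miR-133 to act on proliferation, on serum response factor and on the actin cytoskeleton. A hairpin is cut into a 5p and a 3p arm, of which one is usually kept as the guide strand, for miR-133 the 3p arm. Striated muscle is not a cell type of liver, so their level in a liver-labelled culture has no obvious expected value.

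The miR-206 and miR-133b sequences are shown because the report turns on the arms of the miR-133b hairpin and its cluster partner. They were taken from RefSeq (GRCm38.p6), where 5 of the 9 miRNAs matched, and all 5 were identical to the target given for the array probe. In the mature sequences below, written 5′ to 3′, capitals mark the seed, bases 2 to 8.
miR-133b-5p: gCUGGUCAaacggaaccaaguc
miR-133b-3p: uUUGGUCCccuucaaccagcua
miR-206-3p: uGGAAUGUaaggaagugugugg
miR-206-5p: aCAUGCUUcuuuauauccucaua
miR-1a-1-5p: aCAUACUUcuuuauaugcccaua

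The hairpins carry these arms as follows, with the mature arms in capitals.
Mir133b: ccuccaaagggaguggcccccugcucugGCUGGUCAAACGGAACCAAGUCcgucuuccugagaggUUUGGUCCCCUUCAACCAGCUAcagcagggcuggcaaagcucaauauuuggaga
Mir206: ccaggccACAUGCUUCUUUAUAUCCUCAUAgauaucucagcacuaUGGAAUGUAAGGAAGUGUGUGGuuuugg
Mir206 (chr1:20679010-20679082, plus strand) and Mir133b (chr1:20682769-20682887, plus strand) lie 3686 bases apart. All of their mature arms overlap exons of the lincRNA gene Gm28653 in the GENCODE M21 annotation of the same build. miR-133b-5p is at chr1:20682797-20682818 and miR-133b-3p at chr1:20682834-20682855. miR-1a-1-5p is at chr2:180389057-180389079, in the Mir1a-1 gene. By the array's target sequences, miR-133b-3p and miR-133a-3p share their seed and differ in 1 of 22 bases. The 5p arms of miR-133b and miR-133a differ in 3 of 21 bases, 1 of them in the seed. miR-206-3p and miR-1a-3p share their seed and differ in 4 of 22 bases.

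Brightness was measured in 2 spots per miRNA. The detection limit, set on each array 3 SD above the average blank spot, ran from 64.0 on control cell replicate 5 to 474 on T-C cell replicate 3, and 189 to 1314 miRNAs exceeded it per array. The first principal component was negative on every T-C cell array, at −15.8 on replicate 1 and −5.10 to −1.34 on the others. On control cell arrays it was positive, from 1.63 to 8.05. Tests covered the 476 miRNAs that exceeded the limit on 5 or more of the 10 arrays. Log2 levels are log2(brightness + 50) after cyclic loess normalization between arrays, and a difference between groups is the T-C cell mean less the control cell mean. Probes differ in how well they bind and label, so the brightness of 2 miRNAs on an array is not a ratio of their amounts. Fewer cells that make a miRNA and less of it per cell cannot be told apart in these samples.

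Of the 9 muscle miRNAs, 5 were tested: miR-133b-5p, miR-133b-3p, miR-133a-3p, miR-1a-3p and miR-206-3p. The other 4 lay at background. One member, miR-133b-5p, rose, and 4 did not pass an adjusted p of 0.05. Of all 476 tested miRNAs, 7.77% passed, 1.47% as higher and 6.3% as lower in T-C cell samples. This split, 7 higher and 30 lower, was 1 and 13 with median centring and 14 and 33 with quantile normalization. An unadjusted p under 0.05 was reached by 3 of the 5 members, both arms of miR-133b and miR-133a-3p, and by 18.3% of all tested miRNAs. The median log2 difference was −0.058 over the 5 tested members and 0.019 over all tested miRNAs. The 2 arms of miR-133b had differences of opposite sign.

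**Figure D1:**
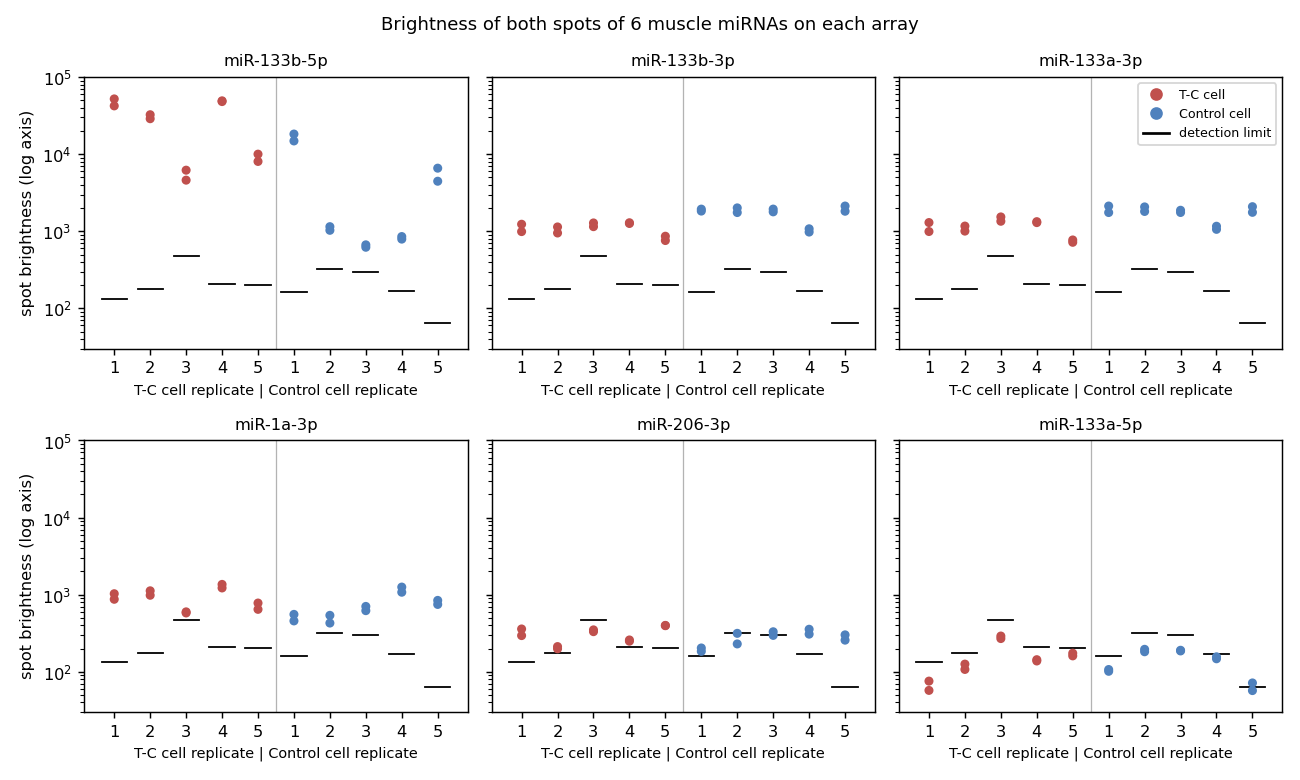
Brightness of both spots of 6 muscle miRNAs on each array (log axis), T-C cell replicates 1 to 5 in red on the left of each panel and control cell replicates 1 to 5 in blue on the right, with the detection limit of each array as a black line. miR-133b-5p ran from 644 to 48739 as the mean of its spots, while miR-133a-5p exceeded the limit on 1 of 10 arrays.

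mmu-miR-133b-5p, the arm of the miR-133b hairpin that is usually the passenger strand, had brightness values of 47262, 30711, 5408, 48739 and 9038 on T-C cell replicates 1 to 5. On control cell replicates 1 to 5 it had 16567, 1090, 644, 823 and 5527. T-C cell replicates 1, 2 and 4 exceeded every control cell array, and control cell replicates 2, 3 and 4 were far below every T-C cell array, but T-C cell replicates 3 and 5 lay below control cell replicate 1, so the groups overlapped. The groups did not overlap for 3.78% of all tested miRNAs. Its log2 level averaged 14.25 ± 1.23 on T-C cell arrays and 11.11 ± 1.88 on control cell arrays (SD, n = 5 each). It rose 8.84-fold on this scale (95% interval 2.53 to 30.9, log2 difference 3.14, SE 0.83, limma adjusted p = 0.0419). The call ended when any 1 of 7 arrays was left out, T-C cell replicates 1, 2 and 4 and control cell replicates 2, 3, 4 and 5, with log2 differences from 2.74 to 3.42 and limma adjusted p from 0.0607 to 0.0995. It also ended with array weights (3.00, limma adjusted p = 0.105). The unadjusted exact two-sided permutation p over the 252 splits of 5 against 5, added after the values were seen, was 0.0317, where the smallest possible is 0.00794.

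The spread of miR-133b-5p between samples of 1 group was unusual too. Its SD within groups was 1.59 on the log2 scale, the largest of all 476 tested miRNAs, whose median was 0.29. Its level ranked 15 of 476. The 2 spots of an array differed by −0.11 to 0.56 on the log2 scale. Brightness ran from 5408 to 48739 among T-C cell arrays and from 644 to 16567 among control cell arrays. Over all 10 arrays, which includes the difference between groups, the range was 75.7-fold. Of the probes that share a side with both of its spots, miR-133c and miR-1927 stayed below the detection limit on every array, and the other is miR-133b-3p. Spots of miR-192-5p, a bright miRNA, touch both at a corner. On control cell replicate 1 the miR-192-5p spot at the first read 167, against 15049 at the second, while miR-133b-5p itself read 14867 and 18268. let-7f-5p (2955 to 7515) and let-7g-5p (2822 to 5251) touch the first spot at a corner as well. The part of neighbouring spots was not tested. The brightest single miR-133b-5p spot, 52159 on T-C cell replicate 1, compares with a brightest spot of any probe of 55741 on that array.

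**Figure D2:**
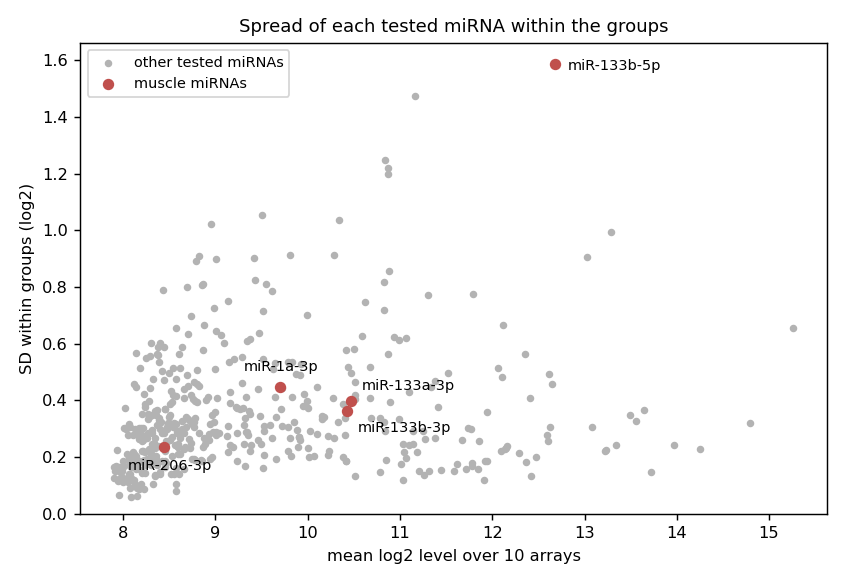
SD within groups (log2) against mean log2 level over 10 arrays for 476 tested miRNAs, with the 5 tested muscle miRNAs in red. miR-133b-5p had the largest SD at 1.59, and the other 4 muscle miRNAs lay between 0.24 and 0.45.

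Likeness to other miRNAs was measured as the root mean square difference of mean-centred log2 profiles over 10 arrays, leaving out the miR-1, miR-133 and miR-206 probes. The nearest miRNAs were miR-6402 at 1.74, miR-150-5p at 1.82 and let-7k at 1.87. Over all 476 tested miRNAs, with no probe left out, the nearest neighbour was at 0.12 in the median, and no miRNA had its nearest neighbour farther away than miR-133b-5p. The profiles were not scaled, so this distance carries the large SD of miR-133b-5p and does not say whether another miRNA was high and low on the same arrays. Among all targets on the array, the longest run of bases shared with miR-133b-5p was 8, in miR-133a-5p, and 8 miRNAs shared 7 or more. miR-191-5p, with a shared run of 7, was detected on 10 arrays at a brightness of 3179 to 5240.

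One type of calibration spot tended to be darker where miR-133b-5p was brighter, as noticed among 19 calibration types after the values were seen. The 16 spots named a3-PUC2PM-20B had mean brightness values of 32828, 33312, 46402, 34718 and 42526 on T-C cell replicates 1 to 5. Their means were 36919, 48906, 50286, 49929 and 52623 on control cell replicates 1 to 5. The 4 arrays where this spot was darkest, T-C cell replicates 1, 2 and 4 and control cell replicate 1, were the 4 where miR-133b-5p was brightest. The order was not an exact mirror: T-C cell replicate 4 was brightest for miR-133b-5p while 2 arrays had a darker spot, and control cell replicate 5 was brightest for the spot and held the sixth rank for miR-133b-5p. Values for each array are given for this type only. Some other bright types also had a lower range on T-C cell arrays, as Ctr09-3P did (22438 to 42971, against 39841 to 48760 on control cell arrays). Among dimmer types, a3-PUC2MM-20B reached higher on T-C cell arrays (551 to 2180, against 612 to 741). The part of the calibration spots in the miR-133b-5p result was not tested.

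mmu-miR-133b-3p, the guide arm of the same hairpin, showed no such spread. It had 1113, 1045, 1216, 1277 and 811 on T-C cell replicates 1 to 5 and 1885, 1882, 1865, 1028 and 1974 on control cell replicates 1 to 5. Of the control cell arrays, 4 exceeded every T-C cell array, and control cell replicate 4 lay among the T-C cell values. The log2 level averaged 10.08 ± 0.37 on T-C cell arrays and 10.78 ± 0.36 on control cell arrays (SD, n = 5 each). The log2 difference was −0.70 (95% interval −1.18 to −0.22, limma adjusted p = 0.0813), which did not pass. Without control cell replicate 4 it was −0.85 (limma adjusted p = 0.0137) and without T-C cell replicate 3 it was −0.84 (0.0470), both past the threshold.

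mmu-miR-133a-3p, the cardiac and skeletal muscle relative, gave nearly the same values on every array. It had 1146, 1087, 1443, 1315 and 746 in T-C cell samples and 1940, 1940, 1815, 1112 and 1925 in control cell samples, replicates 1 to 5 in each. The log2 difference was −0.67 (95% interval −1.18 to −0.15, limma adjusted p = 0.119), and it passed at −0.80 (limma adjusted p = 0.0474) without control cell replicate 4 and at −0.86 (0.0470) without T-C cell replicate 3. Within an array the log2 levels of miR-133b-3p and miR-133a-3p never differed by more than 0.24. The root mean square difference of their profiles was 0.088, against 0.31 between miR-133b-3p and its nearest other miRNA, miR-6973a-3p. Next to miR-133b-3p came miR-669d-2-3p and miR-467f (both 0.33), and to miR-133a-3p, after miR-6973a-3p (0.32), came miR-667-3p (0.33) and miR-669d-2-3p (0.34). They differ in 1 base, and how much signal their probes share was not tested, so they are not counted as independent measurements.

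The arms of miR-133b were compared directly as 5p minus 3p log2 level within each array, which removes any scaling common to an array. The brightness of the 5p spots was 42.5, 29.4, 4.45, 38.2 and 11.1 times that of the 3p spots on T-C cell replicates 1 to 5. On control cell replicates 1 to 5 the multiples were 8.79, 0.579, 0.345, 0.801 and 2.80. The 5p spots were thus brighter on every T-C cell array and darker on control cell replicates 2, 3 and 4. The groups overlapped only in that T-C cell replicate 3 lay below control cell replicate 1. The log2 arm difference averaged 4.17 ± 1.49 on T-C cell arrays and 0.33 ± 1.76 on control cell arrays (SD, n = 5 each). It was 3.84 higher in T-C cell samples (95% interval 1.90 to 5.78, limma adjusted p = 0.0243), the largest absolute difference among the 68 hairpins with both arms tested. It was also the hairpin with the largest SD within groups, at 1.63. Of the 68 hairpins, 16.2% passed in either direction and 13.2% as higher in T-C cell samples, which is 9 higher and 2 lower. These counts rest on single arrays: without control cell replicate 2 or T-C cell replicate 4, 0 hairpins passed by limma after adjustment and 18 each at an unadjusted p under 0.05, against 20 with all arrays. Leaving out control cell replicate 1 gave 1 call, and leaving out replicate 3 or 5 of that group gave 2, all higher. With the replicate block, or with blanks subtracted, 3 passed, all higher. The call ended without T-C cell replicate 4 (3.59, limma adjusted p = 0.0634), control cell replicate 2 (3.60, 0.0510) or control cell replicate 3 (3.42, 0.0511).

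**Figure D3:**
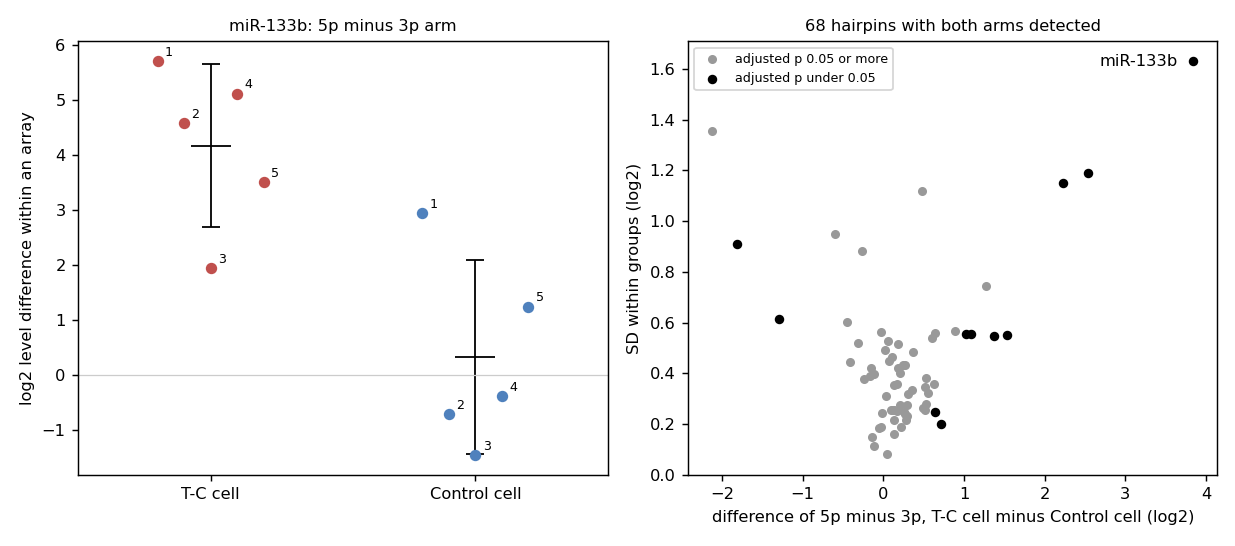
Left, 5p minus 3p log2 level of miR-133b on each array, numbered by replicate, with mean and SD per group in black. Right, difference of 5p minus 3p between groups against SD within groups for 68 hairpins, where miR-133b is farthest out on both axes at 3.84 and 1.63.

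**Figure D4:**
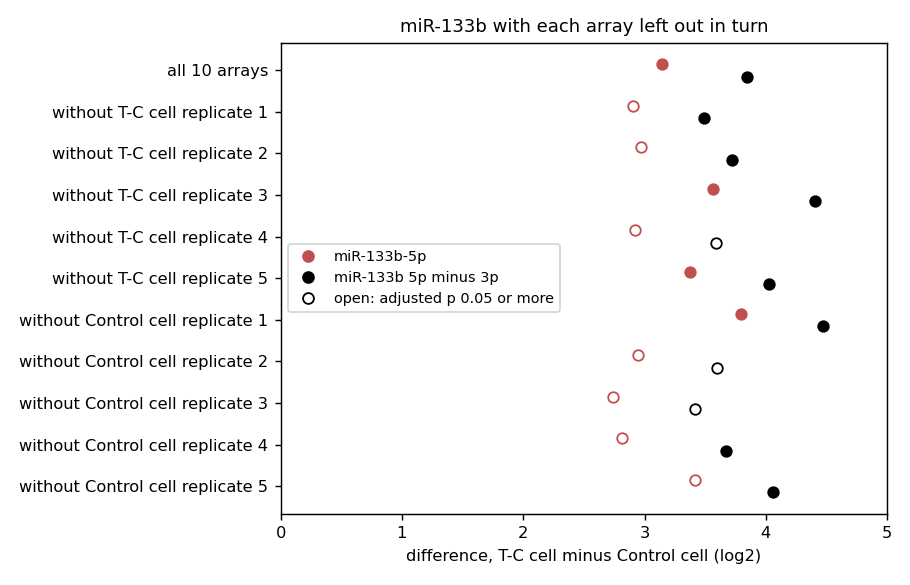
Log2 difference, T-C cell minus control cell, of miR-133b-5p (red) and of miR-133b 5p minus 3p (black), with all 10 arrays and with each array left out. The difference was at least 2.74 for miR-133b-5p and 3.42 for the arm difference in each fit, and open points mark fits in which the adjusted p was 0.05 or more.

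The 5p arms of the other hairpins lay at or near background. mmu-miR-133a-5p, the closest relative of miR-133b-5p, had brightness values of 66.4, 116, 280, 141 and 167 in T-C cell samples and 104, 189, 188, 152 and 64.2 in control cell samples. It exceeded the detection limit once, on control cell replicate 5, at 1.00 times the limit. miR-1a-1-5p exceeded it once as well, on the same array, at 1.11 times the limit, and miR-1a-2-5p and miR-206-5p exceeded it on none. On T-C cell replicate 1, where miR-133b-5p stood at 47262, miR-133a-5p was below the mean of the blank spots, at 0.808 times that mean. For miR-1a, miR-133a and miR-206 the change of the arm ratio was not detectable, because 1 arm was at background.

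mmu-miR-1a-3p, the miR-1 of heart and skeletal muscle and partner of miR-133a, was detected on all 10 arrays. It was close to the limit on T-C cell replicate 3 (1.24 times the limit) and control cell replicate 2 (1.51 times). It had 950, 1052, 588, 1290 and 711 in T-C cell samples and 506, 484, 662, 1165 and 794 in control cell samples, replicates 1 to 5 in each. The groups overlapped widely, with control cell replicate 4 second highest of all arrays. The log2 level averaged 9.83 ± 0.39 on T-C cell arrays and 9.58 ± 0.49 on control cell arrays (SD, n = 5 each), a difference of 0.25 (95% interval −0.32 to 0.82, limma adjusted p = 0.712). The profiles most like it were those of the smooth-muscle miRNA miR-145a-3p (root mean square 0.17), miR-30a-5p (0.20) and miR-125a-5p (0.23).

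mmu-miR-206-3p, the skeletal-muscle miRNA with the seed of miR-1, was the dimmest of the tested members. It had 327, 205, 340, 254 and 398 in T-C cell samples and 194, 272, 313, 332 and 279 in control cell samples. It lay below the limit on T-C cell replicate 3 and control cell replicate 2, and on the other arrays reached at most 4.36 times the limit. The log2 difference was −0.058 (95% interval −0.40 to 0.28, limma adjusted p = 0.889). Its sign was the opposite in 6 of 22 alternatives, among them no normalization (0.11), quantile normalization (0.033) and blank subtraction (0.43), so no direction can be given. The nearest profiles were those of let-7d-3p (root mean square 0.13), miR-6971-3p (0.16) and miR-3097-5p (0.18).

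Cluster partners were compared in the same way, as log2 differences within an array, in 3 pairs of tested members. miR-1a-3p minus miR-133a-3p averaged −0.31 ± 0.52 on T-C cell arrays and −1.22 ± 0.77 on control cell arrays (SD, n = 5 each). Its two-sided p, from an exact permutation test of the 0.92 difference, was 0.0873, or 0.131 adjusted over the 3 pairs. Control cell replicates 1, 2 and 3 lay below every T-C cell array, while control cell replicate 4, at 0.05, lay within the T-C cell values. miR-206-3p minus miR-133b-3p averaged −1.67 ± 0.45 on T-C cell arrays and −2.31 ± 0.49 on control cell arrays, and the 0.64 between them had a p of 0.0714 by the exact permutation test (0.131 adjusted). Here control cell replicates 1, 2, 3 and 5 lay below every T-C cell array. Neither pair passed with all arrays. Without control cell replicate 4 the differences were 1.23 (exact permutation p = 0.0238) and 0.84 (exact permutation p = 0.0159), each 0.0357 after adjustment. Most of both differences came from the miR-133 3p arms. With all arrays these arms had log2 differences of −0.67 (miR-133a-3p) and −0.70 (miR-133b-3p), against 0.25 for miR-1a-3p and −0.058 for miR-206-3p. Since the 3p targets are near-identical, these pairs are not counted as independent results, and miR-206-3p lay close to the detection limit. miR-133b-3p minus miR-133a-3p, the near-identical pair, averaged −0.051 ± 0.12 on T-C cell arrays and −0.021 ± 0.062 on control cell arrays (exact two-sided permutation p = 0.619).

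**Figure D5:**
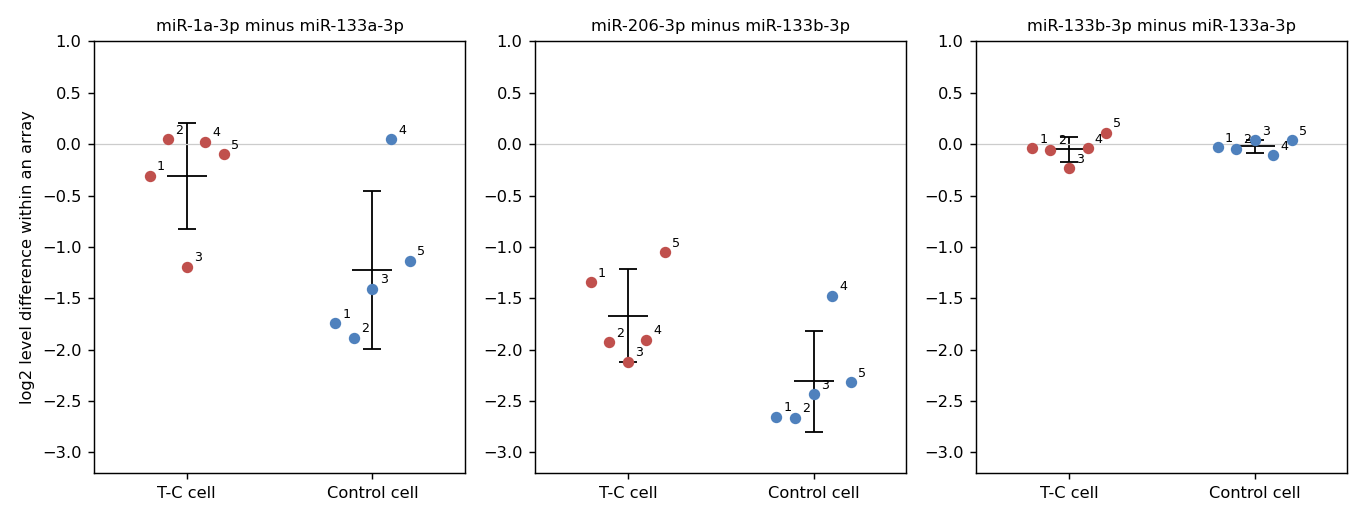
Log2 level difference within an array for 3 pairs of muscle miRNAs, T-C cell arrays left and control cell arrays right, numbered by replicate, with mean and SD per group in black. In the left panel control cell replicate 4 lies at 0.05, apart from the other control cell arrays at −1.89 to −1.14.

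The sequences of miR-133a-3p, miR-133b-3p and miR-133b-5p hold the letters ACC, a motif noticed earlier in these data, and miR-1a-3p and miR-206-3p do not. Of the 124 tested miRNAs with ACC, 28 passed as lower and 2 as higher in T-C cell samples, and their median log2 difference was −0.13. The calls rest on single arrays, since over all 476 miRNAs the 30 lower calls became 1 when control cell replicate 1, 2 or 3 or T-C cell replicate 4 was left out, 2 when control cell replicate 5 was, and 9 when T-C cell replicate 1 was. Of the 352 others, 2 passed as lower and 5 as higher, with a median of 0.05. Because the motif was picked out in these same data, the counts describe them and are not a test of the motif. The 3p arms of miR-133a and miR-133b lay on the same side as most miRNAs with ACC, of which 66.9% had a negative difference, and miR-133b-5p is 1 of the 2 that rose. GC content was 54.5% for miR-133b-5p, 50% for miR-133b-3p and 27.3% for miR-1a-3p, against a median of 50% over the tested miRNAs.

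Other markers of striated muscle were near background. Of 9 probes for miR-1b, miR-133c, miR-208a, miR-208b and miR-499, miRNAs of heart and skeletal muscle or relatives of the members, 7 were detected on no array and 0 were tested. The 3 brightest by mean log2 level were miR-208a-5p at 7.83, detected on 3 arrays, miR-499-3p at 7.72, detected on 2, and miR-133c at 7.59, detected on none. The summed brightness of the 9 probes ran from 703 to 2353 in T-C cell and from 549 to 1866 in control cell samples. Smooth-muscle and fibroblast miRNAs were bright: 8 of 10 probes were tested, 0 passed by limma with adjustment and 0 at an unadjusted p under 0.05, their median difference was 0.07, and their summed brightness ran from 42618 to 80518 in T-C cell and from 48523 to 62858 in control cell samples. Of 13 hepatocyte probes, 7 were tested, 0 passed by limma with adjustment and 0 without, their median difference was 0.09, and the sums were 21898 to 37246 in T-C cell and 23903 to 36032 in control cell samples. miR-122-5p, the defining hepatocyte miRNA, was detected on 1 of 10 arrays. The 3 brightest of the hepatocyte list were detected on all 10: miR-194-5p, miR-192-5p and miR-148a-3p, with mean log2 levels of 13.50, 13.29 and 11.07. Of 9 blood-cell probes, 5 were tested and their median difference was 0.34. Of these 1 passed as higher, the lymphocyte miRNA miR-150-5p (log2 difference 0.86, SE 0.23, limma adjusted p = 0.0433), against 1.47% of all tested miRNAs. Without control cell replicate 2 or 3, 0 of all tested miRNAs passed as higher, so miR-150-5p did not pass either. The blood-cell sums were 3411 to 6457 in T-C cell and 2803 to 3793 in control cell samples. The part of these cell types in the miR-133b result was not tested.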

How the data were processed

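RNA of 5 T-C cell and 5 control cell samples was profiled on one-colour arrays by LC Sciences from 1 µg of total RNA with a poly(A) tail and Cy3 staining, per the labels' protocols. The deposited values are median spot intensity, per the file headers, and are on a linear scale. No scanner, image software or miRBase release is named by the sources used. Each array has 3968 spots, of which 3784 are miRNA spots and 16 blanks. log2(intensity + 50) was computed from the authors' deposited intensity, averaged over 2 spots and normalized by cyclic loess. Groups were compared with limma 3.58.1 in R 4.3.3 (trend, two-sided, Benjamini-Hochberg adjustment over 476 miRNAs or 68 hairpins, threshold 0.05). The number of arrays limits the precision.

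The members and lists were chosen with earlier results of these data known. All members are named, with the 3 most alike profiles for each tested one, list members that passed, and the 3 brightest other striated-muscle miRNAs. The list names miR-486a and miR-486b matched no probe name. No array was a copy of another, since at most 0.0264% of miRNA spots had identical values in 2 arrays. In 10 simulated comparisons of 476 miRNAs with the spread of these arrays, 88.8% of miRNAs changed 2-fold and 2.10% of unchanged ones were called. In simulated comparisons of 68 hairpins, 95.5% of 4-fold arm changes were called. The simulations changed a larger share of miRNAs and of hairpins than was called in the data, which makes the adjusted threshold easier to pass. The rates are averages with independent noise and do not give the chance of a call for miR-133b, which had the largest SD.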

Additional observations from a re-analysis of the deposited data

Results flagged for a closer look

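Of 18 sets of 5 samples checked for an array far from the others (each tested member, the miR-133b arm difference and the 3 partner pairs, in both groups), 3 were flagged, where chance flags about 1 in 20. Control cell replicate 4 had a miR-133b-3p log2 level of 10.15, against 10.87 to 11.02 on the other control cell arrays. The same array had a miR-133a-3p log2 level of 10.26, against 10.83 to 11.03, and with 1 base between these targets the pair is not counted as separate events. T-C cell replicate 3 had miR-1a-3p minus miR-133a-3p at −1.19, against −0.31 to 0.05 on the other T-C cell arrays, and it is the array with the highest detection limit, 474. There miR-1a-3p stood at 1.24 times the limit.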

How the results depend on the processing

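Across 22 alternatives each, the miR-133b-5p difference stayed between 2.74 and 3.80 and the miR-133b arm difference between 3.42 and 4.47. miR-133b-5p did not pass with all miRNAs on the array tested (3.14, limma adjusted p = 0.203), with blanks subtracted to a floor of 1 (3.49, 0.0687) or with array weights (3.00, 0.105), and ranged from 2.74 to 3.80 over the fits that left out 1 array. The arm difference did not pass with all miRNAs tested (3.84, 0.0880), and ranged from 3.42 to 4.47 with 1 array left out. With array weights miR-133a-3p (−0.72) and miR-133b-3p (−0.73) passed. The exact permutation test, added after the data were seen, gave p = 0.0397 for miR-133a-3p (−0.67) and p = 0.0238 for miR-133b-3p (−0.70). These p-values are not adjusted over the tested miRNAs, so they are not calls. The unadjusted limma p with all arrays was smaller, at 0.0155 and 0.00837. With 1 array left out, miR-133a-3p ranged from −0.86 to −0.55 and miR-133b-3p from −0.85 to −0.58. With 1 array left out, miR-1a-3p minus miR-133a-3p ranged from 0.76 to 1.23 and miR-206-3p minus miR-133b-3p from 0.49 to 0.84, and the second pair was 1.14 with blanks subtracted (0.202 adjusted, exact permutation test), against 0.64. miR-206-3p changed sign with array weights (0.072), blanks subtracted (0.43), no normalization (0.11), quantile normalization (0.033), the second spot only (0.0022), and over left-out arrays ran from −0.16 to 0.021, positive without T-C cell replicate 4. With 1 array left out, miR-133b-3p minus miR-133a-3p ran from −0.071 to 0.016, positive without T-C cell replicate 3. miR-1a-3p did not pass in any of its 22 alternatives. The count of 37 miRNAs past the threshold was 1 with all miRNAs tested, 3 with blanks subtracted, 14 with median centring, and 1 to 44 with 1 array left out (1 without control cell replicate 2 or 3, 2 without T-C cell replicate 4, 3 without control cell replicate 1 or 5, 12 without T-C cell replicate 1). The replicate number as a block gave 22 and changed no call of a member. miR-133b-5p and the arm difference were still past the threshold (limma adjusted p = 0.0390 and 0.00467). For the partner pairs the block replaced the permutation test by sign flips between same-numbered samples. With so few samples the sign flips cannot reach the threshold, so they do not decide the calls of the partner pairs. Same-numbered samples are not pairs by the labels: the correlations of their deviations ran from −0.20 to 0.26, and own numbers correlated best in 1 of 5. The cause of these changes was not tested. Testing all miRNAs enlarged the adjustment to 1892 miRNAs, and to 732 hairpins for the arm difference. It also moved the unadjusted limma p of miR-133b-5p from 0.00259 to 0.00317. Signal near the detection limit limits miR-206-3p, the 4 untested arms, and miR-1a-3p on T-C cell replicate 3 and control cell replicate 2.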
